A study of Mus musculus with 26 samples.

Results

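The genes described here are 9 members of the CC chemokine system in mouse lung: the ligands Ccl2, Ccl3, Ccl4, Ccl7, Ccl9, Ccl17 and Ccl20 and the receptors Ccr1 and Ccr2. No threshold on their values was used to choose them, but they were chosen with earlier results of these data known. Each was read from the probe set that carries its symbol alone and had the highest mean over the arrays, so that 9 of the 12394 genes measured are covered and all 9 were kept. Values are log2 expression on Affymetrix arrays, and levels are compared only within a gene. Left lungs came from male mice aged 6 to 8 weeks. Il10-/- mice carried the B6.129P2-Il10tm1Cgn/J allele, a targeted deletion of interleukin-10 in all tissues, and Il10+/+ mice were C57BL/6, so that the deletion cannot be told apart from donor-strain DNA beside it. Exposure was to 0.3 ppm O3 during 24, 48 or 72 hr, or to filtered air during 24 or 48 hr. The 24- and 48-hr air arrays were pooled within a genotype, and no 72-hr air arrays were analysed here, so that a 72-hr value is set against shorter air exposure. After 1 outlying Il10-/- 24-hr O3 array was left out, the groups held 2, 3 and 3 Il10-/- arrays at 24, 48 and 72 hr of O3 and 4 in air, and 3, 3 and 3 Il10+/+ arrays at the same times and 4 in air. The labels number the replicates without saying that each is a separate mouse, so that p-values measure the spread between these arrays.

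CC chemokines are small secreted proteins with adjacent cysteines near the amino terminus. They bind G protein-coupled receptors on leukocytes and direct those cells into tissue. Ccl2 and Ccl7 are ligands of Ccr2, the receptor of inflammatory monocytes. Ccl3 and, in mice, Ccl9 bind Ccr1, a receptor of neutrophils and monocytes. Ccl17, a product of dendritic cells and macrophages, attracts T cells through Ccr4, and Ccl20, made by epithelium, attracts Ccr6-bearing lymphocytes and dendritic cells. In a whole-lung sample, more cells of a type and more RNA per cell cannot be told apart.

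The left-out array correlated with the others at 0.847 to 0.879 over all probe sets, against at least 0.965 among the other 25. Il10 itself read 6.29 to 7.71 on 12 of 13 libraries labelled Il10-/- and 3.92 to 4.25 on the 13 labelled Il10+/+, so that its probe set was brighter on those 12 than on any Il10+/+ array. The position of its probe set relative to the deletion is not given in the sources used here. The library labelled Il10-/- air 48 hr replicate 1 had an Il10 value of 3.87 and so went against its label, and the calls of chemokine and receptor genes against Il10-/- air are also given without it. Alveolar type 2 markers, such as Sftpc, were bright in every group, with means of the list from 12.92 to 13.18 over the 25 arrays. On the left-out array that mean was 6.67. Its club cell list read 5.99, against 13.57 to 13.91 on the 25 arrays. The B cell list read 11.6 on it, against 6.20 to 8.78, and the list of dividing cells 10.97, against 5.04 to 8.83.

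In GRCm38.p6, 5 of the ligands lie on chromosome 11. Ccl2 (chr11:82035577-82037452) and Ccl7 (chr11:82045712-82047525) are separated by 8259 bases, and Ccl9 (chr11:83572917-83578636), Ccl3 (chr11:83647843-83649378) and Ccl4 (chr11:83648624-83664683) follow. Ccl17 is at chr8:94809380-94812038, Ccl20 at chr1:83116766-83119167, Ccr1 at chr9:123962126-123968692 and Ccr2 at chr9:124101918-124109140. A RefSeq promoter was held for 6 of the 9 members. The 250 bases before the start are shown, 5′ to 3′, for the 4 of these genes that were higher over the 3 O3 times in at least one genotype. Capitals mark matches, on either strand, to the κB consensus, to TGANTCA (an AP-1 motif) or to TTCNNNGAA (a STAT motif), and no marked matches overlap.
Ccl17, chr8:94810203-94810452, + strand: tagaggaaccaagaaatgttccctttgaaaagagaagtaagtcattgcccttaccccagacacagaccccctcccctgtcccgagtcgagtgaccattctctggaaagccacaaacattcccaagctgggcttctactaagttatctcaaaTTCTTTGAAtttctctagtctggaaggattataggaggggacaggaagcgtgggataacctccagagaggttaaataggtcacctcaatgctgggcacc
Ccr1, chr9:123968693-123968942, − strand: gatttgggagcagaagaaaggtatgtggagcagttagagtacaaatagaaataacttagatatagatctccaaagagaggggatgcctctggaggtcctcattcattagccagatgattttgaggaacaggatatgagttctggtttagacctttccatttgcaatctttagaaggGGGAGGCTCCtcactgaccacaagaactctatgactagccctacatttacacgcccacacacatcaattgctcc
Ccl9, chr11:83578637-83578886, − strand: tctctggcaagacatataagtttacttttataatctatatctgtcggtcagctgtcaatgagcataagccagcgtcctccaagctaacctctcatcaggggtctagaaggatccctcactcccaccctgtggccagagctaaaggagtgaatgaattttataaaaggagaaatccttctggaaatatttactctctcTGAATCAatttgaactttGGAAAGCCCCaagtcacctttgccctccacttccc
Ccl20, chr1:83116516-83116765, + strand: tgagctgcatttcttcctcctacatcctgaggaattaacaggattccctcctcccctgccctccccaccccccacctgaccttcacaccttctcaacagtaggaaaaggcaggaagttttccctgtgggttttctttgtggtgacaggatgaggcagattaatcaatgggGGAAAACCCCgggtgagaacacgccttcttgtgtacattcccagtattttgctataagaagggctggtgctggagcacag
A κB match was found in Ccr1, Ccl9 and Ccl20, which is 3 of the 6 member windows, and in 7.25% of all 32851 promoter windows of that length. The STAT match was found in Ccl17 alone of the 6 (7.02% of all windows) and the AP-1 match in Ccl9 alone (6.75%). TATAAA, a core promoter motif, was in Ccl9 alone (12.4%). These matches describe letters and not bound sites. The Ccl17 start used by this table lies inside the gene span given above.

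Ccl17, Ccr1, Ccl9, Ccl2 and Ccl20 were higher after O3 in Il10-/- lungs when the 3 exposure times were averaged, and all but Ccl9 were also higher in Il10+/+ lungs. Ccl3, Ccl4, Ccl7 and Ccr2 did not pass the threshold in either genotype, and no member was called lower. A gene was called at an adjusted p under 0.05 in limma, with Benjamini-Hochberg adjustment over 12394 genes. Over the 3 times, 5 of 9 members were called higher in Il10-/- lungs, against 5.27% of all genes, and 4 of 9 in Il10+/+ lungs, against 2.74% of all genes. The median change of the 9 was 0.54 in Il10-/- lungs, where the median of all genes was -0.0089, and 0.32 in Il10+/+ lungs, where it was -0.013. Because earlier results of these data were known when the members were chosen, such counts and medians describe the set and do not test it. Of the 11 further CC ligands measured, 2 were called higher in Il10-/- lungs, at a median of -0.03. With the left-out array put back, Ccr1 and Ccl9 were still called in Il10-/- lungs and no member was called in Il10+/+ lungs.

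**Figure D1:**
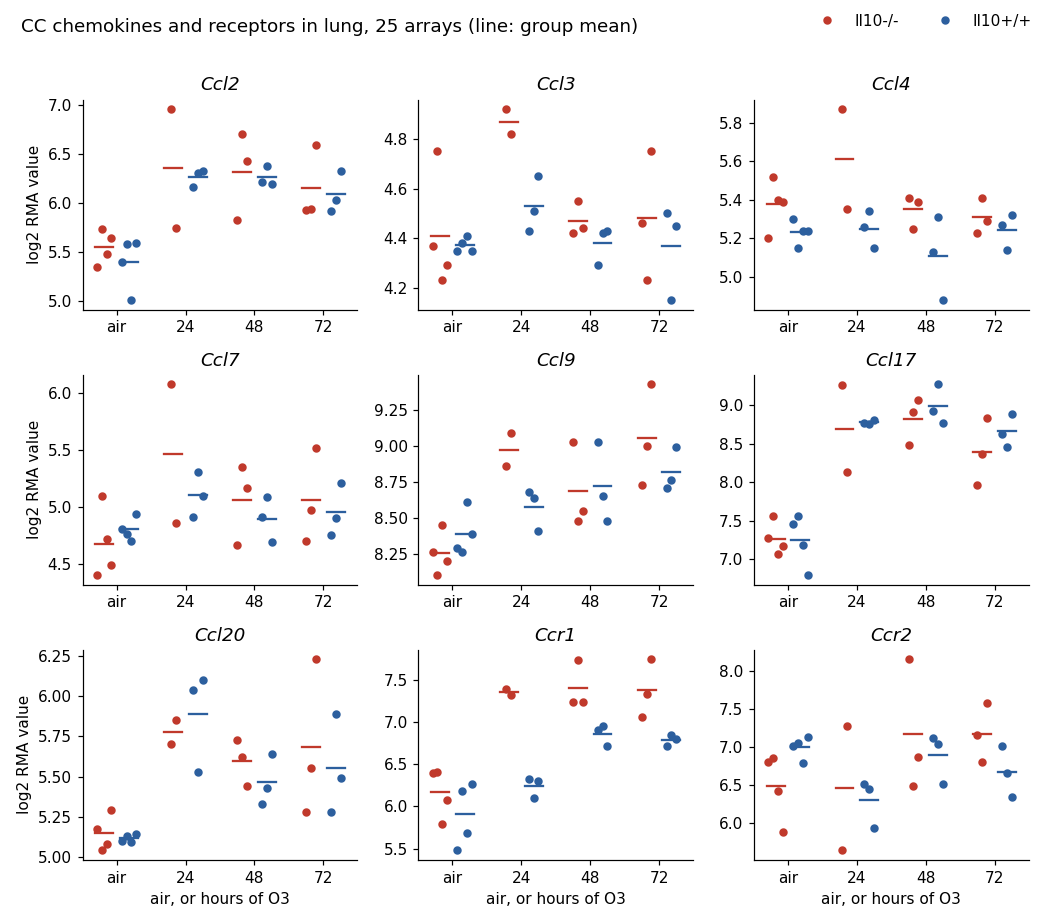
Log2 values of the 9 genes on each of 25 arrays (vertical axis) in air and after 24, 48 and 72 hr of O3 (horizontal axis), with Il10-/- arrays in red to the left of Il10+/+ arrays in blue and a line at each group mean. Ccl17 was above the air range on every O3 array, and Ccr1 on every Il10-/- O3 array.

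At single times the calls were fewer. The comparisons of a genotype with air share its 4 air arrays. In Il10-/- lungs 3, 2 and 3 of the 9 members were called higher at 24, 48 and 72 hr, against 1.32%, 4.04% and 4.25% of all genes. In Il10+/+ lungs 1, 3 and 2 were called, against 0.0484%, 2.71% and 2.47% of all genes. Counted by arrays alone, 6, 5 and 4 members had every Il10-/- O3 array above every Il10-/- air array at 24, 48 and 72 hr, against 11.5%, 8.58% and 11.5% of all genes. In Il10+/+ lungs 4, 4 and 5 members did so, against 4.4%, 8.92% and 9.34% of all genes. The 24-hr calls in Il10-/- lungs rest on 2 arrays, and none of the 3 was made when the fit held only the 6 arrays concerned or when arrays were weighted by their quality.

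**Figure D2:**
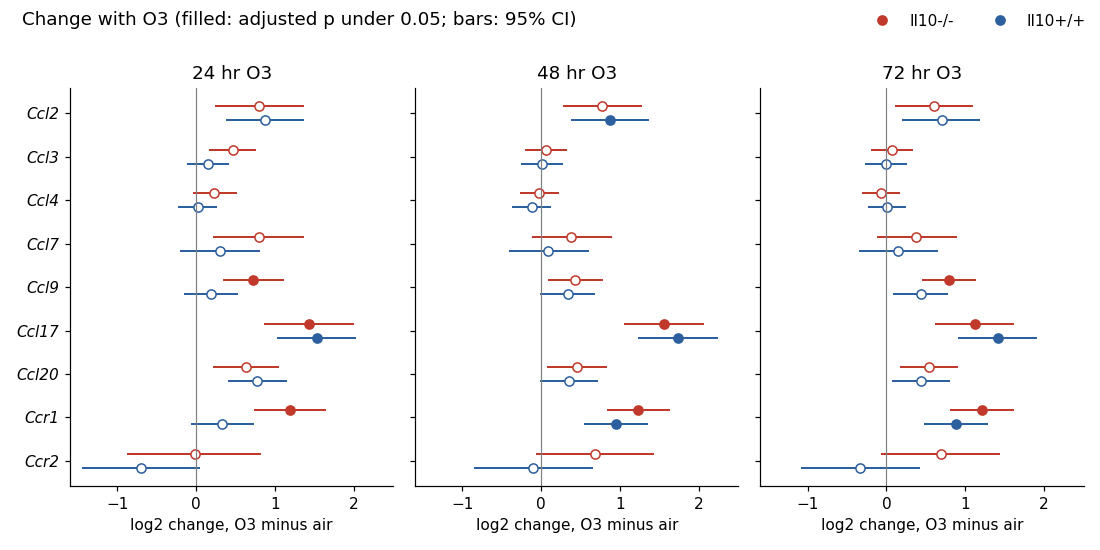
Log2 change from air of each gene (horizontal axis, with 95% confidence intervals) at 24, 48 and 72 hr of O3, with Il10-/- lungs above Il10+/+ lungs for each gene and filled points where the adjusted p was under 0.05. Ccl17 was called at all 3 times in both genotypes, and Ccr1 at all 3 in Il10-/- lungs and at 48 and 72 hr in Il10+/+ lungs.

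Ccl17, the Ccr4 ligand, had the largest change among the members at each time in both genotypes, except at 72 hr in Il10-/- lungs, where that of Ccr1 was larger. Its log2 values were 9.26 and 8.13 on the Il10-/- 24-hr O3 arrays, 8.48, 8.91 and 9.07 at 48 hr and 7.96, 8.37 and 8.83 at 72 hr, against 7.27, 7.56, 7.06 and 7.17 on the Il10-/- air arrays, of which the third is the library whose Il10 value went against its label. In Il10+/+ lungs Ccl17 read 8.77, 8.76 and 8.80 at 24 hr, 8.92, 9.27 and 8.77 at 48 hr and 8.63, 8.46 and 8.88 at 72 hr, against 7.46, 7.56, 7.18 and 6.79 in air. No O3 array of either genotype came down to the air range. The change in Il10-/- lungs was 1.43 (SE 0.27, adjusted p = 0.00661) at 24 hr, 1.56 (SE 0.24, adjusted p = 2e-04) at 48 hr and 1.12 (SE 0.24, adjusted p = 0.00631) at 72 hr by limma, which is 2.69-, 2.94- and 2.17-fold. The Il10+/+ change was 1.53, 1.74 and 1.41 (SE 0.24 each), which is 2.89-, 3.33- and 2.65-fold, at adjusted p-values of 0.0206, 0.000123 and 0.00077. All of these changes passed, but some of the calls rest on single arrays. Without Il10-/- O3 24 hr replicate 1, the array at 9.26, the 24-hr Il10-/- change was 0.87 and was not called (adjusted p = 0.0798), and without Il10-/- O3 72 hr replicate 3 the 72-hr change was 0.90 (adjusted p = 0.0767). The 24-hr call in Il10+/+ lungs was lost without any one of the 3 24-hr O3 arrays or without Il10+/+ air 48 hr replicate 2, with an adjusted p of up to 0.176, while the change itself stayed between 1.37 and 1.63. All 3 Il10-/- changes, then 1.36, 1.49 and 1.05, were called when the library labelled Il10-/- air 48 hr replicate 1 was left out. The left-out array read 4.64 for Ccl17, below all 25 others, and with it in the fit Ccl17 was called at no time, the 24-hr change in Il10-/- lungs being 0.08 (adjusted p = 0.951). Over the 3 times its change was 1.37 (SE 0.19, adjusted p = 9.36e-05) for Il10-/- and 1.56 (SE 0.19, adjusted p = 3.55e-05) for Il10+/+, and neither call was lost without any one of the 25 arrays.

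Ccl2, the main ligand of Ccr2, was higher after O3 in both genotypes over the 3 times, the log2 change being 0.72 (SE 0.19, adjusted p = 0.0199) for Il10-/- and 0.81 (SE 0.18, adjusted p = 0.0126) for Il10+/+. It read 6.96 and 5.75 at 24 hr, 5.83, 6.71 and 6.43 at 48 hr and 5.93, 5.94 and 6.59 at 72 hr of O3 in Il10-/- lungs, against 5.35, 5.74, 5.48 and 5.64 in air. Il10+/+ arrays read 6.17, 6.31 and 6.33, then 6.22, 6.38 and 6.20, then 5.92, 6.03 and 6.33 at the same times, against 5.40, 5.58, 5.01 and 5.59 in air. Every O3 array lay above its own genotype's air arrays, by a margin of only 0.01 for the lowest Il10-/- array at 24 hr. At single times Ccl2 passed only at 48 hr in Il10+/+ lungs, where the change was 0.87 (SE 0.23, adjusted p = 0.0378). That call was lost without any one of the 3 O3 arrays, Il10+/+ air 24 hr replicate 1 or either Il10+/+ 48-hr air array, with an adjusted p of up to 0.145. For Il10-/- at 48 hr the change of 0.77 (SE 0.23) was just outside the threshold (adjusted p = 0.0505), and it was 1.02 (adjusted p = 0.0138) without replicate 1 of that group, the array at 5.83. Over the 3 times the Il10-/- call was lost without Il10-/- air 24 hr replicate 1 (adjusted p = 0.0795) and without the library labelled Il10-/- air 48 hr replicate 1 (adjusted p = 0.0706), and the Il10+/+ call was lost without Il10+/+ air 48 hr replicate 1 (adjusted p = 0.0666).

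Ccl7, the other Ccr2 ligand of the set and the neighbour of Ccl2, was not called. On the Il10-/- 24-hr O3 arrays it read 6.08 and 4.86, so that one was the highest of all 25 arrays and the other fell inside the Il10-/- air range of 4.40 to 5.10. At 48 and 72 hr the Il10-/- arrays ranged from 4.67 to 5.35 and from 4.70 to 5.52. Il10+/+ arrays ranged from 4.91 to 5.31 at 24 hr, from 4.69 to 5.09 at 48 hr and from 4.75 to 5.21 at 72 hr, against 4.70 to 4.94 in air. Over the 3 times the change of Ccl7 was 0.52 (SE 0.19, adjusted p = 0.106) in Il10-/- lungs and 0.18 (SE 0.19, adjusted p = 0.701) in Il10+/+ lungs. Without Il10-/- O3 24 hr replicate 3, which leaves 1 array at that time, the 24-hr change in Il10-/- lungs was 1.40 for Ccl7 (adjusted p = 0.00161) and 1.40 for Ccl2 (adjusted p = 0.00122), and that of Ccl7 over the 3 times was 0.72 (adjusted p = 0.00435), in a fit that assumes the lone array to vary like the other groups. Without replicate 1 instead, the 24-hr change was 0.18 for Ccl7 (adjusted p = 0.781) and 0.20 for Ccl2 (adjusted p = 0.745), so that the size at this time is set by which of the arrays is kept. The changes of Ccl7 without the library labelled Il10-/- air 48 hr replicate 1 were not called either (lowest adjusted p, 0.191).

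Of Ccl3, Ccl4 and Ccl9, Ccl9 alone was called. Ccl9, a mouse Ccr1 ligand produced by myeloid cells, read 8.86 and 9.09 at 24 hr, 9.03, 8.48 and 8.55 at 48 hr and 8.73, 9.0 and 9.43 at 72 hr of O3 in Il10-/- lungs, against 8.26, 8.10, 8.45 and 8.20 in air. In Il10+/+ lungs the arrays read 8.68, 8.64 and 8.41, then 9.03, 8.65 and 8.48, then 8.71, 8.76 and 8.99, against 8.29, 8.26, 8.61 and 8.39 in air. Il10-/- O3 arrays were thus all above Il10-/- air arrays, while the Il10+/+ groups overlapped at 24 and 48 hr. The change in Il10-/- lungs was 0.72 (SE 0.18, adjusted p = 0.039) at 24 hr, 0.43 (SE 0.16, adjusted p = 0.123) at 48 hr and 0.80 (SE 0.16, adjusted p = 0.00407) at 72 hr. The Il10+/+ change was 0.19, 0.34 and 0.44 (SE 0.16 each), at adjusted p-values of 0.949, 0.3 and 0.17. The difference between these responses, averaged over the times, was 0.33 (SE 0.18, adjusted p = 1), so that the genotypes were not shown to differ. Over the 3 times the Il10-/- change was 0.65 (SE 0.13, adjusted p = 0.00294) and was called without any one array in turn. The 24-hr call was lost without replicate 1 or 2 of the Il10-/- 24-hr air arrays, replicate 2 of the 48-hr ones, the 24-hr O3 array at 9.09 or Il10+/+ O3 48 hr replicate 2 (adjusted p of up to 0.0978), and the 72-hr call without Il10-/- O3 72 hr replicate 3 (change 0.61, adjusted p = 0.058). Both single-time calls were made without the library labelled Il10-/- air 48 hr replicate 1 (24-hr change 0.79 with an adjusted p of 0.0441, 72-hr change 0.86 with an adjusted p of 0.0052). The change of the dimmer Ccl9 probe set was 0.95 (SE 0.21, adjusted p = 0.012 over all probe sets) at 72 hr and 0.65 (SE 0.24, adjusted p = 0.191) at 24 hr in Il10-/- lungs, a comparison added after the data had been seen. By limma adjusted likewise over all probe sets, the probe set used passed at 72 hr (adjusted p = 0.00546) but not at 24 hr (adjusted p = 0.0511).

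Ccl3 and Ccl4, which encode MIP-1α and MIP-1β, were not called. Ccl3 read 4.92 and 4.82 on the Il10-/- 24-hr O3 arrays, the highest values among the 25, against 4.37, 4.75, 4.23 and 4.29 in Il10-/- air. Its change there was 0.46 (SE 0.14, adjusted p = 0.0786), and it was 0.15 (SE 0.12, adjusted p = 0.936) in Il10+/+ lungs. At 48 and 72 hr its change was within 0.07 of 0 in either genotype. Without Il10-/- air 24 hr replicate 2, the air array at 4.75, the 24-hr change in Il10-/- lungs was 0.58 and passed (adjusted p = 0.0184), as did that over the 3 times, at 0.31 (adjusted p = 0.0494). The log2 change of Ccl4 was at most 0.23 in size at any time in either genotype, and its intervals at 48 hr ran from -0.26 to 0.21 in Il10-/- lungs and from -0.36 to 0.11 in Il10+/+ lungs. The Il10-/- 24-hr O3 arrays read 5.87 and 5.35 for Ccl4, and without the array at 5.35 the 24-hr Il10-/- change was 0.49 (adjusted p = 0.022), with the spread taken from the other groups. Without the array at 5.87 it was -0.03 (adjusted p = 0.944). Neither gene was called against Il10-/- air without the library whose Il10 value went against its label.

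Ccl20, the Ccr6 ligand, was higher over the 3 times, with a change of 0.54 (SE 0.14, adjusted p = 0.0204) for Il10-/- and 0.52 (SE 0.14, adjusted p = 0.035) for Il10+/+, and passed at no single time. It read 5.70 and 5.85 at 24 hr, 5.73, 5.62 and 5.44 at 48 hr and 5.28, 5.55 and 6.23 at 72 hr in Il10-/- lungs, against 5.17, 5.04, 5.08 and 5.29 in air. In Il10+/+ lungs it read 6.04, 5.53 and 6.10, then 5.33, 5.43 and 5.64, then 5.28, 5.89 and 5.49, against 5.10, 5.13, 5.09 and 5.14 in air. One Il10-/- 72-hr array, at 5.28, fell within the Il10-/- air range, while every Il10+/+ O3 array was above air. The 24-hr change in Il10+/+ lungs, 0.77 (SE 0.17), had an unadjusted p of 0.000224 and an adjusted p of 0.149. The Il10+/+ call over the 3 times was lost without any one of the 4 air arrays of that genotype, and also without replicate 1 or 3 at 24 hr of O3, replicate 3 at 48 hr, or replicate 2 or 3 at 72 hr (adjusted p of up to 0.11). The Il10-/- call was lost without Il10-/- air 24 hr replicate 1 or 2 (adjusted p = 0.0524 and 0.063) or the library labelled Il10-/- air 48 hr replicate 1 (adjusted p = 0.0736).

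Ccr1, the receptor for Ccl3 and Ccl9, was the member with a difference between genotypes. Its log2 values were 7.39 and 7.32 at 24 hr, 7.24, 7.73 and 7.23 at 48 hr and 7.06, 7.33 and 7.74 at 72 hr of O3 in Il10-/- lungs, against 6.40, 6.41, 5.79 and 6.07 in air. In Il10+/+ lungs they were 6.32, 6.10 and 6.30 at 24 hr, 6.90, 6.95 and 6.71 at 48 hr and 6.71, 6.85 and 6.80 at 72 hr, against 5.48, 6.18, 5.69 and 6.27 in air. Ordered by mean, the groups ran 5.91 (Il10+/+ air), 6.17 (Il10-/- air), 6.24 (Il10+/+ at 24 hr), 6.79 and 6.85 (Il10+/+ at 72 and 48 hr), and 7.36, 7.38 and 7.40 (Il10-/- at 24, 72 and 48 hr). The first 3 groups overlapped one another, as did the next pair and the last 3, and no array of one of these sets reached into another. Against air, Ccr1 in Il10-/- lungs was higher by 1.19 (SE 0.21), 1.23 (SE 0.19) and 1.21 (SE 0.19) at 24, 48 and 72 hr, which is 2.28-, 2.35- and 2.32-fold, at adjusted p-values of 0.00424, 2e-04 and 0.000336. In Il10+/+ lungs the rise was 0.95 (SE 0.19, adjusted p = 0.00485) at 48 hr and 0.88 (SE 0.19, adjusted p = 0.00788) at 72 hr, and its 24-hr change was 0.33 (SE 0.19, adjusted p = 0.869). Over the 3 times the change was 1.21 (SE 0.15, adjusted p = 2.9e-05) for Il10-/- and 0.72 (SE 0.15, adjusted p = 0.00585) for Il10+/+, and the second of these was 0.58 (adjusted p = 0.0546) without Il10+/+ air 24 hr replicate 1. Each of the 5 calls at single times was also made without any one array in turn, with an adjusted p of at most 0.0466. The Il10-/- changes were 1.07, 1.11 and 1.09 when the library labelled Il10-/- air 48 hr replicate 1 was left out. With the left-out O3 array back in, the Il10-/- changes of 0.95, 1.23 and 1.21 were called and those of Il10+/+ lungs were not (adjusted p = 0.0905 at 48 hr and 0.103 at 72 hr). The 24-hr Il10-/- call was lost with only the arrays concerned (adjusted p = 0.186), with array weights (adjusted p = 0.729) and against 24-hr air alone (0.96, adjusted p = 0.073).

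Over the 3 O3 times Il10-/- lungs exceeded Il10+/+ lungs in Ccr1 by 0.75 (SE 0.12, 95% confidence interval 0.50 to 1.00, adjusted p = 0.00319), or 1.68-fold, and 1 of 9 members was called in this direction against 0.266% of all genes. All 8 Il10-/- O3 arrays lay above all 9 Il10+/+ O3 arrays, which held in that direction for 0.0807% of all genes. With the left-out array, which read 6.62 and lies below all 6 Il10+/+ arrays at 48 and 72 hr, the difference was 0.67 (adjusted p = 0.0368), and without any one of the 25 arrays it was 0.69 to 0.80 (adjusted p of at most 0.0106). At 24 hr the difference was 1.12 (SE 0.22, adjusted p = 0.0208), at a time when 0.169% of all genes were called higher, and it was not called with only the arrays concerned (adjusted p = 0.351), with array weights (adjusted p = 1), with the left-out array (adjusted p = 0.0721) or without any one of the 3 Il10+/+ arrays (adjusted p of up to 0.106). At 48 and 72 hr it was 0.54 (SE 0.20) and 0.59 (SE 0.20), each with an adjusted p of 1, where 0.00807% and 0.0242% of all genes were called higher. In air it was 0.26 (SE 0.17, adjusted p = 0.82), where 0.00807% of all genes were called higher. By arrays alone, Ccl3, Ccl4, Ccl9 and Ccr1 had both Il10-/- arrays above all Il10+/+ arrays at 24 hr, as 12.2% of all genes did, and Ccr1 alone did so at 48 and 72 hr, as 3.2% and 3.99% did. In air no member had all Il10-/- arrays above all Il10+/+ arrays, where 1.38% of all genes did. A difference between the genotypes in the response to O3 was not shown for Ccr1, since the difference of the changes was 0.49 (SE 0.21, adjusted p = 1) over the times and 0.86 (SE 0.28, adjusted p = 0.561) at 24 hr. Without any one array, the library whose Il10 value went against its label among them, the difference of the changes was 0.37 to 0.63 over the times. The difference in air was then 0.12 to 0.38, and neither was called in any of these fits. The second Ccr1 probe set was dim, at 3.68 to 4.10 on all 25 arrays, and differed by 0.12 (SE 0.07, adjusted p = 0.56 over all probe sets) over O3, while the mean of both probe sets differed by 0.43 (adjusted p = 0.00465).

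**Figure D3:**
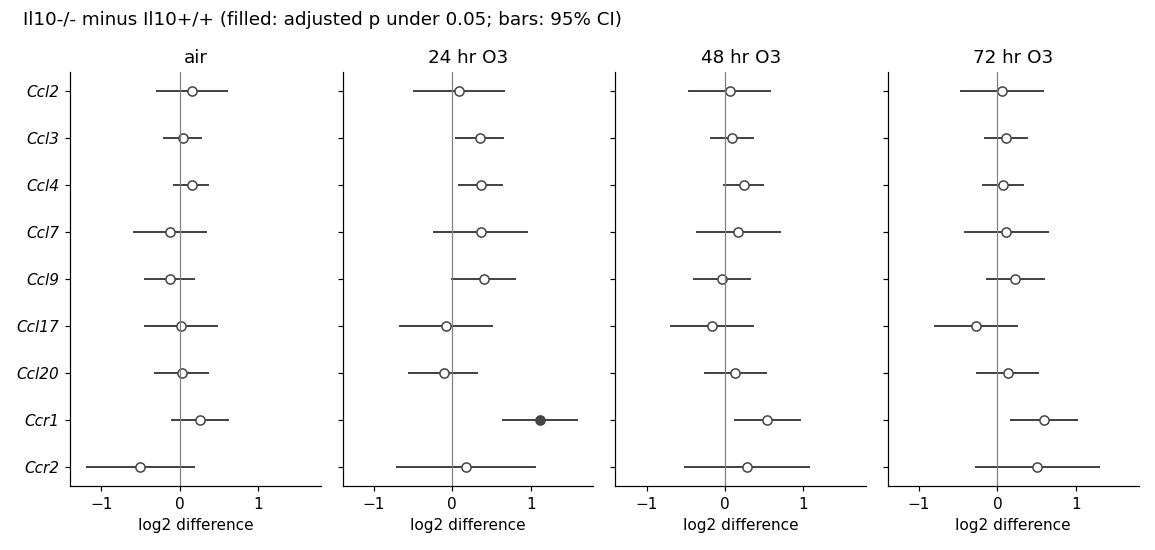
Log2 difference of Il10-/- minus Il10+/+ arrays for each gene (horizontal axis, with 95% confidence intervals) in air and at 24, 48 and 72 hr of O3, filled where the adjusted p was under 0.05. Ccr1 at 24 hr is the filled point, and its intervals at all 3 O3 times lie above 0.

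Neutrophil markers were read on the same arrays. Of 10 such genes, 6 were called higher in Il10-/- than in Il10+/+ lungs over O3, against 0.266% of all genes. They were S100a8 (1.78), S100a9 (1.89), Csf3r (1.13), Mmp9 (0.81), Il1r2 (0.81) and Mmp8 (0.82). Cxcr2, Ngp, Camp and Ltf were not called, and 8 of the 10 differences were above 0. The median of the 10 was 0.81 where that of all genes was -0.0025. Against air over the 3 times, 2 of the 10 were called higher in Il10-/- lungs, against 5.27% of all genes. The mean of the list was 7.56 to 7.69 at 24 hr, 6.94 to 7.33 at 48 hr and 6.83 to 7.49 at 72 hr of O3 in Il10-/- lungs, against 6.23 to 7.24, 6.22 to 7.18 and 6.53 to 6.61 in Il10+/+ lungs. In air it was 6.44 to 7.10 in Il10-/- and 6.64 to 7.31 in Il10+/+ lungs, and 0 of the 10 were called between the genotypes. Of 13 monocyte and macrophage markers none was called between the genotypes over O3, at a median of 0.16, while Cd14, a co-receptor for endotoxin, was higher after O3 in both genotypes at all 3 times. Most of the list was not called: 1, 1 and 2 of the 13 were higher at 24, 48 and 72 hr in Il10-/- lungs (median changes 0.02, 0.28 and 0.38). Of all genes, 1.32%, 4.04% and 4.25% were. In Il10+/+ lungs 1 was higher at each time (medians 0.02, 0.20 and 0.14), against 0.0484%, 2.71% and 2.47% of all genes. The 5 B cell markers were all below 0 in this comparison, at a median of -0.84, and 0 of them were called over O3 by limma (adjusted p of 0.0766 to 0.196) or in air, where the median was -0.91. All 5 markers of dividing cells were called higher than in air over the 3 times, at a median of 1.87 in Il10-/- and 1.47 in Il10+/+ lungs. Of all genes, 5.27% and 2.74% were called higher in these comparisons. Their mean was 8.01 to 8.83 at 48 and 72 hr and 5.04 to 6.57 at 24 hr in Il10-/- lungs, against 5.32 to 6.21 in air. Of 6 endothelial markers, 3 were called lower in Il10-/- lungs over the 3 times, at a median of -0.30, and 0 in Il10+/+ lungs, at a median of -0.24. Of all genes, 2.28% and 0.92% were called lower. In Il10+/+ lungs none of the 10 neutrophil markers was called against air at 48 or 72 hr, at median changes of -0.55 and -0.39. The part of any of these cells in the values of Ccr1 and the other members was not tested.

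**Figure D4:**
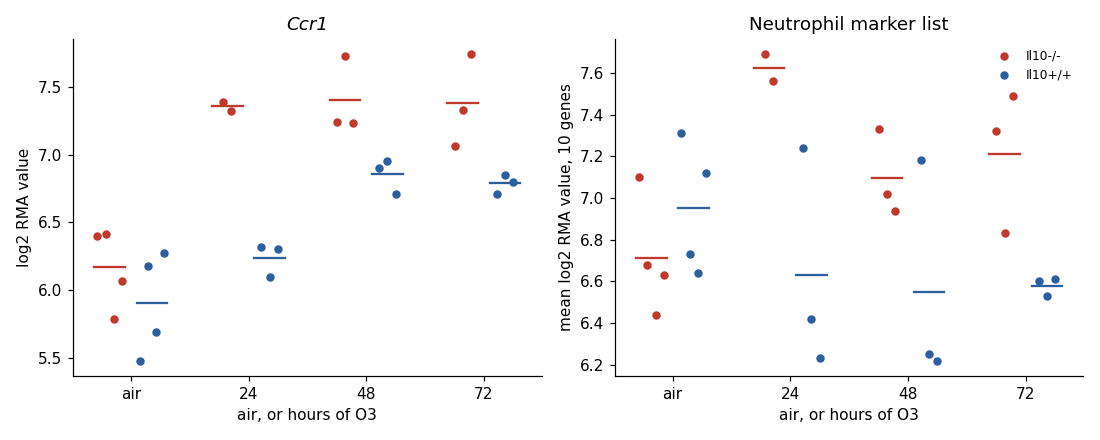
Left, log2 value of Ccr1, and right, mean log2 value of 10 neutrophil markers, on each of 25 arrays in air and after 24, 48 and 72 hr of O3 (horizontal axes), with Il10-/- arrays in red to the left of Il10+/+ arrays in blue and a line at each group mean. Group means of both were highest in Il10-/- lungs after O3, and in Il10+/+ lungs no O3 array exceeded the highest air array, at 7.31, for the marker mean.

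Ccr2, the receptor for Ccl2 and Ccl7, varied most within groups, with a residual SD of 0.51 against 0.15 to 0.34 for the other members. Its values were 5.64 and 7.28 at 24 hr, 8.15, 6.49 and 6.86 at 48 hr and 7.15, 6.80 and 7.57 at 72 hr in Il10-/- lungs, against 6.80, 6.85, 6.42 and 5.88 in air. Il10+/+ arrays read 6.51, 6.45 and 5.93, then 7.12, 7.04 and 6.51, then 7.01, 6.65 and 6.34, against 7.01, 7.05, 6.79 and 7.13 in air. At 24 hr all Il10+/+ O3 arrays were below air, as for 3.59% of all genes, at a change of -0.70 (SE 0.36, adjusted p = 0.846). The changes in Il10-/- lungs were -0.02, 0.68 and 0.69 (SE 0.40, 0.36 and 0.36). Single arrays moved these values widely: at 24 hr the change was 0.79 without the array at 5.64 and -0.84 without the one at 7.28, and at 48 hr it was 0.19 without the array at 8.15 and 1.02 without the one at 6.49. None of these was called, nor was any change of Ccr2 without the library labelled Il10-/- air 48 hr replicate 1. Intervals this wide, from -0.06 to 1.42 at 48 hr in Il10-/- lungs, leave a change of more than 1 log2 unit undecided. The difference between the genotypes in the mean response was 0.83 (SE 0.40, adjusted p = 1), and 2 further Ccr2 probe sets gave 0.78 (SE 0.60) and 0.21 (SE 0.19).

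Between the genotypes, no other member passed the threshold in air or over O3. For Ccl17 the difference over O3 was -0.17 (95% confidence interval -0.49 to 0.14), for Ccl2 0.07 (-0.24 to 0.38) and for Ccl20 0.05 (-0.18 to 0.28). Those of Ccl4 and Ccl3 were 0.22 (0.07 to 0.37, adjusted p = 0.17) and 0.18 (0.02 to 0.34, adjusted p = 0.333), and that of Ccl4 was 0.31 (adjusted p = 0.00559) without Il10-/- O3 24 hr replicate 3. No member passed the F test of interaction between genotype and exposure (lowest unadjusted p, 0.0488 for Ccr1, adjusted p = 1), and none had an unadjusted p under 0.01 for the interaction term of the methods' two-way analysis of variance. In limma's F test 0% of all genes passed and 417 genes had an unadjusted p under 0.05, of which Ccr1 was the only member. For that term 99 genes had an unadjusted p under 0.01.

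Within groups, Ccl2 and Ccl7 moved together from array to array. The deviations of the 9 members from their group means were compared over 25 arrays, in 36 pairs, with permutations of arrays within groups. For Ccl2 and Ccl7 Pearson's r was 0.893 (permutation p = 6e-05, 0.0022 after Benjamini-Hochberg adjustment over the 36 pairs) and Spearman's rho was 0.875 (permutation p = 6e-05, adjusted 0.0022). Without the 2 arrays farthest from the median of Ccl2, r was 0.824. With the replicate number removed as well as the group, r was 0.884 and rho 0.836. No other pair passed. The next highest were Ccl7 with Ccl17 (r = 0.763, adjusted p = 0.094; rho = 0.67, adjusted p = 0.12) and Ccl2 with Ccl17 (r = 0.731, adjusted p = 0.16; rho = 0.681, adjusted p = 0.12), by the same permutation test. Il10-/- O3 24 hr replicate 1 was the highest array of all 25 for Ccl2 and Ccl7, and replicate 3 of that group was close to the air arrays for both. The correlation was added after the data had been seen.

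**Figure D5:**
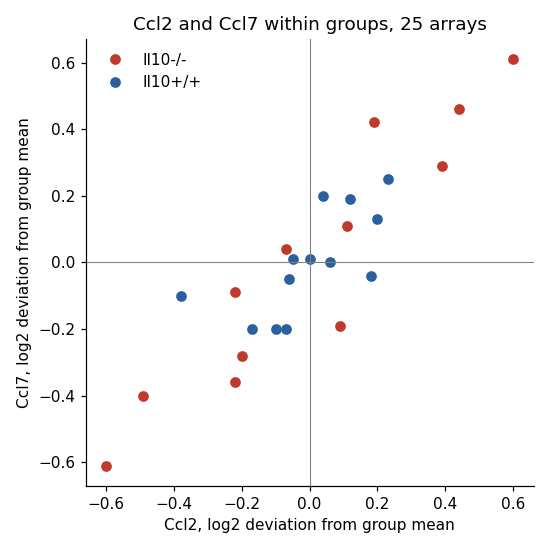
Deviation of each of 25 arrays from its group mean, in log2 units, for Ccl2 (horizontal axis) and Ccl7 (vertical axis), with Il10-/- arrays in red and Il10+/+ arrays in blue. Arrays high for one gene within their group tended to be high for the other, at r = 0.893, with some exceptions near the origin, and the points farthest from the origin are Il10-/- arrays.

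Genes whose values over the 25 arrays were most like those of a member are given as a description, since the arrays share their groups. For Ccl17 and Ccl2 the closest gene was Ch25h, which encodes cholesterol 25-hydroxylase (r = 0.926 and 0.895). Next for Ccl17 came Lrg1 (0.901) and the aldo-keto reductase gene Akr1b8 (0.898), and for Ccl2 came Ccl17 (0.887) and Tnfrsf12a (0.871), the receptor of the cytokine TWEAK. Ccl7 was closest to Pus1 (0.85), Cxcl1 (0.835), a chemokine that attracts neutrophils, and Ccl2 (0.795). Ccr1 was closest to Med8 (0.917), the Fc receptor gene Fcgr3 (0.866) and Tmem37 (0.865), and Ccl9 to Clec4e (0.819), the macrophage receptor Mincle, Fxyd5 (0.782) and Strada (0.779). Ccl20 was closest to Ly6i (0.746), Pigr (0.726), which carries antibodies across epithelium, and the neutrophil surface gene Cd177 (0.708). Ccr2 was closest to Mtdh (0.806), Trps1 (0.797) and Fyb (0.782). The closest genes to Ccl3 were Nfkbib (0.805), Klb (0.79) and Sil1 (0.773), and to Ccl4 Saa2 (0.714), Alppl2 (0.711) and Pou3f1 (0.711).

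The rest of the CC family was read from lists of ligands, receptors and signalling genes. Of 11 further ligands measured out of 14 listed, 2 were higher and none lower over the 3 times in Il10-/- lungs, at a median change of -0.03, against the 5.27% of all genes called higher, and none was called in Il10+/+ lungs, at a median of 0.03. These 2 calls, of Ccl6 and Ccl12, were weakly held: that of Ccl6 was made without 7 of the 25 arrays left out in turn (adjusted p of up to 0.143) and that of Ccl12 without 19 (adjusted p of up to 0.128). Both were lost without the library labelled Il10-/- air 48 hr replicate 1 (adjusted p = 0.143 and 0.0879). At 72 hr the change of Ccl6, a mouse Ccr1 ligand, was 0.55 (SE 0.13, adjusted p = 0.0162) in Il10-/- and 0.53 (SE 0.13, adjusted p = 0.0249) in Il10+/+ lungs. Its arrays ranged from 11.28 to 11.53 at 72 hr of O3 and from 10.77 to 10.99 in air in Il10-/- lungs, and from 11.37 to 11.65 and 10.78 to 11.24 in Il10+/+ lungs. Ccl12, the mouse Ccr2 ligand also called MCP-5, changed by 0.94 at 72 hr in Il10-/- lungs (SE 0.26, adjusted p = 0.038), with arrays at 5.28, 5.22 and 5.98 against 4.61, 4.85, 4.60 and 4.17 in air. At 72 hr the Il10-/- call of Ccl6 was lost without O3 replicate 2 or 3 of that group (adjusted p of up to 0.107) and the Il10+/+ call without 5 arrays, namely Il10+/+ air 24 hr replicate 1, both 48-hr air arrays and O3 replicates 2 and 3 (adjusted p of up to 0.132). The 72-hr call of Ccl12 was lost without any one of its O3 arrays, air 24 hr replicate 1 or either 48-hr air array of Il10-/- lungs (adjusted p of up to 0.251). On the Il10-/- 24-hr O3 arrays Ccl12 read 5.83 and 4.27, the same split as Ccl2 and Ccl7 showed. That split was not particular to these genes. Ccl17 and Ccl4 showed it too, while Ccl9, Ccl20 and Ccr2 were lower on the first array. The lists of dividing cells (6.57 and 5.04), dendritic cells (6.95 and 6.01) and B cells (7.41 and 6.20) were higher on the first array. Those of alveolar type 2 and club cells were lower on it.

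Of 11 further receptors measured out of 12 listed, 1 was lower and none higher over the 3 times in Il10-/- lungs, against 2.28% of all genes called lower, and none was called in Il10+/+ lungs. At 48 hr 2.29% of all genes were called lower in Il10-/- and 1% in Il10+/+ lungs, and at 72 hr 1.62% and 0.686%. Ccrl2, an atypical receptor that binds chemerin without signalling, was lower at 48 hr, with a change of -0.76 (SE 0.14, adjusted p = 0.00109) in Il10-/- and -0.53 (SE 0.14, adjusted p = 0.029) in Il10+/+ lungs. Its arrays at 48 hr ranged from 7.94 to 8.55 in Il10-/- lungs, against 8.90 to 9.32 in air, and from 7.97 to 8.43 in Il10+/+ lungs, against 8.63 to 8.84 in air. The 48-hr call for Il10-/- was made without any one array in turn (adjusted p of at most 0.0104), and that for Il10+/+ was lost without either 24-hr air array, air 48 hr replicate 2 or O3 replicate 1 or 3 of its own genotype (adjusted p of up to 0.232). Against 48-hr air alone the Il10+/+ call was also lost (adjusted p = 0.153). In Il10-/- lungs Ccrl2 was called lower at 72 hr (-0.55) and over the 3 times (-0.46) as well. These calls were made in 23 and 24 of the 25 fits without one array (adjusted p of up to 0.139 and 0.0661). Ackr4, a scavenger of homeostatic CC chemokines, was lower in Il10-/- lungs at 72 hr, with a change of -0.53 (SE 0.15, adjusted p = 0.0396). That call was lost without 5 of the 25 arrays in turn, O3 72 hr replicates 1 and 3, Il10-/- air 24 hr replicate 1 and Il10+/+ air 24 hr replicate 1 among them (adjusted p of up to 0.214), the fifth being the library whose Il10 value went against its label (adjusted p = 0.108). It was also lost with only the arrays concerned (adjusted p = 0.0962). Of 15 genes for receptor signalling measured out of 17, only Arrb1, which encodes β-arrestin 1, was called against air. It was lower at 48 hr, with a change of -0.46 (SE 0.10) in each genotype (adjusted p = 0.00812 for Il10-/- and 0.013 for Il10+/+). Both 48-hr calls were lost against 48-hr air alone (adjusted p = 0.117 for Il10-/- and 0.0686 for Il10+/+). At 72 hr the change of Arrb1 was -0.43 (adjusted p = 0.0155) in Il10-/- and -0.40 (adjusted p = 0.0349) in Il10+/+ lungs. With only the arrays concerned, the Il10-/- call at 48 hr (adjusted p = 0.0722) and the Il10+/+ call at 72 hr (adjusted p = 0.0595) were lost. Arrb1 was also lower over the 3 times in Il10+/+ lungs, a direction called for 0.92% of all genes. Each of its single-time calls was lost without 1 to 4 arrays of its own genotype, with an adjusted p of up to 0.304, but not without the library whose Il10 value went against its label (adjusted p of at most 0.0464). None of these other family genes was called between the genotypes, and with the left-out array put back Arrb1 at 48 hr in Il10-/- lungs was the one call against air at a single time that was still made (adjusted p = 0.0407).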

How the data were processed

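RNA from left lung was hybridised to Affymetrix arrays, 26 in all. Per the labels and the study's methods, the authors normalized and summarized the arrays with the Robust Multichip Average method (RMA), and the deposited log2 values, 1 per probe set, are used as given. The version of that software is not given in the sources used here. Array medians ran from 6.54 to 6.68. Precision is limited by how many arrays each group held.

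Of 22690 probe sets, 20393 carried 1 gene symbol in the platform annotation, 691 several and 1606 none, and only the first were used. For each of 12394 genes the probe set with the highest mean over the 26 arrays was kept. In R 4.3.3 with limma 3.58.1, one mean was fitted per group (genotype by air, 24, 48 or 72 hr of O3) over 25 arrays, without the Il10-/- 24-hr O3 array that the study's methods also left out, and p-values were adjusted by Benjamini-Hochberg over all genes at 0.05. The fit was tested on simulated data. Alternatives were all 26 arrays, leaving out each array, only the arrays concerned, array weights, terms for replicate number or label letter, median centring, mean probe sets, a filter on dim genes and air of equal duration. Correlations of deviations used 100000 permutations. Figures were drawn with matplotlib 3.10.9.

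All 9 members are named, and of other family genes up to 4 per comparison with the largest change past the threshold. For each member the 3 genes most correlated with it are named. The members and lists were chosen with earlier results of these data known. Promoter sequences and positions are from RefSeq, GRCm38.p6.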

Additional observations from a re-analysis of the deposited data

Results flagged for a closer look

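The Il10-/- 24-hr O3 array that was left out of the comparisons held 3 members above the highest Il10-/- air array, which is why they are listed here. Ccl4 read 5.89 on it, against 5.20 to 5.52 in Il10-/- air. Ccr1 read 6.62, against at most 6.41 in Il10-/- air and at least 7.32 on the other Il10-/- 24-hr O3 arrays. Ccr2 read 7.04, against at most 6.85 in Il10-/- air. On the same array Ccl17 read 4.64, against 6.79 to 9.27 on the other 25, and Ccl2, Ccl3, Ccl7, Ccl9 and Ccl20 did not exceed the Il10-/- air range. No member on the air arrays, the groups of 4, held a value far enough from the others to be listed, in 18 groups looked at.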

How the results depend on the processing

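Of 25 member results called, none changed direction under any alternative, and 13 were called without any one array in turn. Without one array, the members called numbered 2 to 5, 2 to 3 and 1 to 4 for Il10-/- at 24, 48 and 72 hr, 0 to 2, 2 to 3 and 2 to 3 for Il10+/+, and 1 to 2 between the genotypes over O3, and the number stayed at 0 between the genotypes in air, for the mean response and for the interaction. With all 26 arrays, 19 of the 25 calls were lost, leaving 1, 1 and 1 members for Il10-/- at the 3 times and 0, 0 and 0 for Il10+/+ by limma. For Il10+/+, 3, 3 and 5 members then had an unadjusted p under 0.05, as did 317, 1077 and 970 of 12394 genes. The left-out array is in no Il10+/+ group, but the spread is estimated from all groups together. The Il10+/+ changes of Ccl17 stayed at 1.53, 1.74 and 1.41, while their adjusted p-values were 0.999, 0.342 and 0.554. When only the arrays concerned were fitted, 0 members were called for Il10-/- at 24 hr by limma (6 at an unadjusted p under 0.05, as were 1058 of 12394 genes). Array weights gave 0 members for Il10-/- at 24 hr (6 at an unadjusted p under 0.05, as were 599 of all genes) and 4 at 48 hr, and 3 at 24 hr and 5 at 72 hr for Il10+/+. By limma with array weights, 3233 of all genes had an unadjusted p under 0.05 for Il10-/- at 48 hr, against 2359 in the main fit. For Il10+/+ at 24 and 72 hr, 1418 and 3278 genes did so, against 730 and 1901, so that the rise was not particular to the members. Against air arrays of equal duration, 0 were called for Il10-/- at 24 hr (6 at an unadjusted p under 0.05, as were 1474 of all genes). For Il10+/+ 0 were called at 24 hr (3 at an unadjusted p under 0.05, as were 619 of all genes). The causes were not tested. All genes called for Il10-/- at 24 hr numbered 259, and 0 with only the arrays concerned. Between the genotypes over O3, 33 genes were higher and 46 lower, against 59 and 25 with each array centred on its median. Neither that centring nor averaging the probe sets of a gene lost any member call, and leaving out the dimmest genes lost 0 of the 23 that could be tested, those of Ccl20 being left out. A term for the letter c in some sample labels lost 1. Most Il10-/- air arrays and no Il10+/+ air array carry that letter, so that the term is partly bound up with the Il10-/- air level.

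The labels do not say what arrays of a number share. Of 40 pairs of same-numbered O3 arrays, 23 correlated above 0.1 (range -0.127 to 0.461), all pairs did so in 5 of 15 pairs of groups, and an array was closest to its own number in 56 of 80 comparisons with another O3 group. This is a hint of pairing from the data, not the design. With the replicate number as a block, 2, 2 and 3 members were called for Il10-/-, 1, 3 and 2 for Il10+/+ and 1 between the genotypes, and the calls of Ccl9 for Il10-/- at 24 hr (adjusted p = 0.0709) and of Ccl20 for Il10+/+ over the 3 times (adjusted p = 0.0748) were lost. By limma with that block, 2237, 2561 and 2783 of all genes had an unadjusted p under 0.05 for Il10-/- (main fit 2120, 2359 and 2509). For Il10+/+ 784, 2178 and 2019 did so (730, 2035 and 1901), and between the genotypes over O3 1754 (1481). Of the other family genes, the block lost Ackr4 at 72 hr (adjusted p = 0.061) and Ccl6 over the 3 times (adjusted p = 0.0593) for Il10-/-, and Ccrl2 at 48 hr for Il10+/+ (adjusted p = 0.0501). A term for the letter c lost Ackr4 too (adjusted p = 0.172).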
